A study of Homo sapiens with 36 samples.

Results

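The RNF-named RING finger genes were taken as every protein-coding row of the deposited expression table whose current symbol is RNF followed by a number, with or without a closing letter. The rule found 73 members among 21599 rows, of which 15509 were protein-coding. RNA had been sequenced from THP-1 cells, a human monocytic leukaemia line, either wild-type (WT) or IRG1 knock-out (KO). IRG1, now called ACOD1, is the mitochondrial enzyme that makes itaconate in activated macrophages. All 36 libraries, controls included, came from cells first treated with PMA (100 nM, 72 h), a phorbol ester that turns THP-1 monocytes into macrophage-like cells. Each genotype then received vehicle, or LPS (200 ng/mL) together with the same concentration of IFN-γ. Cells were taken 6, 12 or 24 h later, which gave 12 groups of 3 replicates. LPS is a bacterial cell wall component sensed by TLR4, and IFN-γ is the cytokine of classical macrophage activation. How the knock-out was made, and whether the KO line is 1 clone, is not given in the sources used here, and the labels do not say that replicates were separate cultures, so p-values measure the spread between these samples only.

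A RING finger is a zinc-binding fold that brings a ubiquitin-loaded E2 enzyme next to a substrate, so most RNF proteins act as E3 ubiquitin ligases. In macrophages they add ubiquitin chains to adaptors and receptors of innate sensing, either to build signalling platforms or to send the protein to the proteasome. The RING-between-RING (RBR) ligases are a special class that first takes the ubiquitin onto its own cysteine. The members were sorted by what is known of them into 8 role lists that held 65 of the 73, and the remaining 8 were counted together. These lists, and those of partner genes, were chosen with earlier results of these data known. Counts by list thus describe the lists and do not test them.

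Values are the deposited log2 expression values, whose offset and scaling are not given in the sources used here, so a difference of 1 on this scale stands for about 2-fold only well above the low end. Library medians lay between 5.47 and 5.48, and the read depth behind each value is unknown. A gene was tested where it reached 3.32, the log2 of 10, in at least 3 libraries, which 21232 genes and all 73 members did. A gene was called where the adjusted p of limma, a linear model fitted across all genes, was under 0.05, and errors of differences are standard errors from that fit. Some members passed the filter only through the groups in which they were high, among them RNF125, RNF144B and RNF157, so counts over the members describe and do not test the list. In bulk RNA, fewer cells of a type and less RNA per cell cannot be told apart.

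The 10 macrophage markers were all above the floor in every group, with a summed level between 13.24 and 15.45 on the log2 scale, against 6.94 to 9.47 for markers of other cell types, of which at most 4 of the 10 with a row reached the floor in a group's mean. PECAM1, in the latter list, was above the floor in every library, at 5.96 to 9.19. ACOD1 itself rose on stimulation in both genotypes, by 11.52, 11.32 and 9.78 in WT, against 8.43, 8.77 and 8.76 in KO at 6, 12 and 24 h on the log2 scale. In stimulated cells it was lower in KO by 3.31 at 6 h and 2.69 at 12 h on the log2 scale, and its difference of -1.48 at 24 h was not called (limma adjusted p = 0.0597), but was at -2.06 ± 0.48 (adjusted p = 0.0159) without the 2 libraries named next. RNA of the targeted gene was thus present in stimulated cells labelled KO, and the sequence changed in them was not checked. Replicate 2 of the KO stimulated 6 h group and replicate 3 of the WT stimulated 24 h group stood apart, with mean correlations to their group of 0.839 and 0.8704 against 0.8905 to 0.9642 for the others. Without both, 8 member calls on stimulation were gained and 3 lost in KO at 6 h, and 6 were gained and 3 lost in WT at 24 h.

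Before the values, 3 promoters are shown to give the sequence context of members that rose at every time in both genotypes: RNF31, the only member promoter with a match to the interferon-stimulated response element, beside RNF144B and RNF114, which held no match to any motif searched. Each run is the 250 bases before the RefSeq start site (GRCh38.p14, plus strand), 5′ to 3′, with motif matches in capitals. The windows lie at chr14:24146625-24146874, chr6:18387100-18387349 and chr20:49936147-49936396, in that order.
RNF31: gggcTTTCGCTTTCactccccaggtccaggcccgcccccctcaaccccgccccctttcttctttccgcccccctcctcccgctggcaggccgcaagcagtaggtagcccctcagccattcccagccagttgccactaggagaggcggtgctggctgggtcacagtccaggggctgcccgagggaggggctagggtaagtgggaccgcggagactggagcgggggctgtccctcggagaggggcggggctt
RNF144B: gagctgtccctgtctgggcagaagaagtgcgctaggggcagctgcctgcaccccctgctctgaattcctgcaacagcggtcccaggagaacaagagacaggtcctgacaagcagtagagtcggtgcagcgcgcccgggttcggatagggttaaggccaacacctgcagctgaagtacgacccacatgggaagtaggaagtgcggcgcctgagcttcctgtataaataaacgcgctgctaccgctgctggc
RNF114: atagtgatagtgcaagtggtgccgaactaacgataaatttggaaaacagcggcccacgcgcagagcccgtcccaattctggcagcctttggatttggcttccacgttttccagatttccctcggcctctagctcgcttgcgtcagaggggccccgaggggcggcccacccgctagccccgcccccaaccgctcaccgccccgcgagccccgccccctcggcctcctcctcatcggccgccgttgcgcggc
The match in RNF31 spans bases 246 to 237 before the start and holds the motif on the minus strand. That motif, GAAA repeated after any 2 bases, occurred in 3.07% of 27305 promoters of this length on either strand, and in 1 of the 62 member promoters that the table holds. The interferon-gamma activated site, searched as TTCNNNGAA, occurred in 6.78% of all promoters and in 3 of the 62, those of RNF10, RNF121 and RNF123. The NF-kB consensus occurred in 5.05% of all promoters and in 9 of the 62, or 14.5%, namely RNF6, RNF44, RNF123, RNF167, RNF207, RNF208, RNF214, RNF216 and RNF227. No position was shared between an interferon-stimulated and a gamma-activated match in any member. A match describes letters only, and no match says only that these letters are not in this window.

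The first question was which of these ligases respond to LPS and IFN-γ. In WT cells 13 members rose and 19 fell at 6 h, where 15.1% of all genes tested were called higher and 20.9% lower. At 12 h 15 rose and 15 fell, beside 16.8% and 21.7% of all genes, and at 24 h 18 rose and 16 fell, beside 20.2% and 26.1%. In KO cells 11 rose and 18 fell at 6 h, beside 16.2% and 22.5% of all genes. The counts were 11 and 18 at 12 h, beside 15.5% and 19.5%, and 14 and 13 at 24 h, beside 17.3% and 21.6%. As shares of the 73 these ran from 15.1% to 24.7% higher and from 17.8% to 26.0% lower, shares near those of all genes. Without the 2 libraries that stood apart the counts were 23 higher and 14 lower in WT at 24 h, and 17 and 17 in KO at 6 h. Fitting only the groups compared gave 16 members in KO at 6 h in place of 29. Leaving out replicate 1 of the KO vehicle 12 h group lowered the KO 12 h total from 29 to 17. The shares of all genes called in these and later alternative fits are not given here. Such counts thus cannot tell a shift of the members from a shift of all genes.

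The calls gained in KO at 6 h without the 2 libraries that stood apart were those of RNF11 (0.44 with all libraries and 1.43 without), RNF138 (0.23 and 1.05), RNF146 (0.07 and 0.64), RNF183 (1.37 and 1.99), RNF145 (0.42 and 0.55), RNF217 (0.55 and 1.02), RNF5 (-0.79 and -1.11) and RNF123 (-0.31 and -0.53). Those of RNF157 (-1.29 and -1.05), RNF216 (-0.50 and -0.38) and RNF20 (-0.80 and -0.45) were lost. In WT at 24 h the calls gained included RNF146 (0.59 and 0.90), RNF111 (0.46 and 0.76), RNF19A (0.77 and 0.92), RNF43 (1.29 and 1.57) and RNF6 (0.39 and 0.89). Calls of RNF168 (-0.64 and -0.63), RNF181 (0.94 and 0.78) and RNF121 (-0.63 and -0.28) were lost there.

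A set of 6 members rose at all 3 times in both genotypes: RNF19B, RNF144B, RNF213, RNF114, RNF115 and RNF31 (7.39% of all genes did so). A set of 8 fell at all 3 times in both: RNF125, RNF166, RNF141, RNF26, RNF130, RNF157, RNF187 and RNF168 (7.24% of all genes). All 6 of the first set, and RNF125, RNF166, RNF26 and RNF130 of the second, kept every call when any 1 library of the groups compared was left out. RNF141 and RNF187 each lost 1 of 6 calls that way, RNF168 lost 3 and RNF157 lost 4. With all libraries, another 23 members were called at no time in either genotype, and 28.7% of all genes were likewise never called. They included RNF4, RNF6, RNF8, RNF11, RNF14, RNF25, RNF32, RNF39, RNF103, RNF111, RNF112, RNF123, RNF138, RNF139, RNF144A, RNF146, RNF169, RNF170, RNF207, RNF212B, RNF214 and RNF215. The heat map of changes shows the 50 members that were called at least once.

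**Figure D1:**
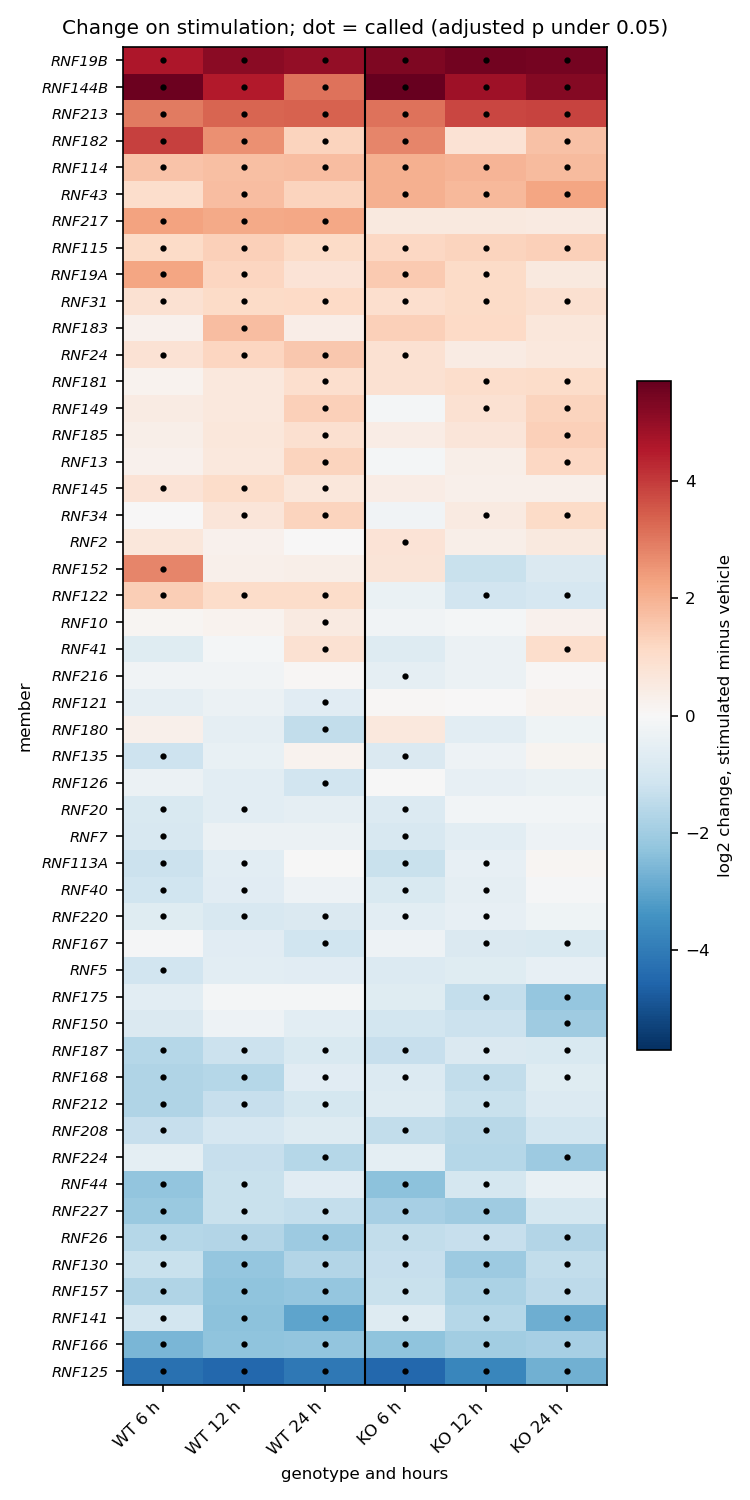
Log2 change, stimulated minus vehicle, of the 50 members called at least once (rows, ordered by mean change) at 6, 12 and 24 h in WT and KO (columns), with colour from blue (lower) to red (higher) and a dot where the change was called by limma. RNF19B, RNF144B and RNF213 are at the top and RNF125 and RNF166 at the bottom in both genotypes, while RNF217 and RNF122 differ in colour between WT and KO.

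Among the RBR ligases, 5 of 8 rose in WT at 6 h and none fell, beside 15.1% of all genes higher and 20.9% lower. The median change was 2.03 beside -0.17 over all genes. In KO at 6 h 4 of 8 rose and 1 fell, beside 16.2% and 22.5% of all genes, with a median of 0.76 beside -0.20. RNF144B, counted among these risers, passed the filter only through its stimulated groups. RNF19B, a membrane-anchored ligase first described in natural killer cells and also found on macrophage phagosomes, gave the smallest p of any member. WT vehicle libraries lay at 5.64, 5.62 and 5.65 (6 h), 5.40, 5.40 and 5.28 (12 h) and 5.30, 5.06 and 4.84 (24 h). Stimulated WT libraries lay at 10.41, 10.39 and 9.88 (6 h), 10.47, 10.56 and 10.52 (12 h) and 10.04, 10.60 and 9.61 (24 h). The lowest stimulated WT library thus lay far above the highest vehicle library.
Vehicle-treated KO libraries lay at 4.31, 5.25 and 4.60 (6 h), 4.48, 4.73 and 4.84 (12 h) and 4.42, 4.78 and 4.46 (24 h). Stimulated KO libraries lay at 10.07, 9.89 and 10.21 (6 h), 9.97, 10.26 and 10.30 (12 h) and 9.90, 10.20 and 9.94 (24 h). The groups did not overlap at any time in either genotype. It rose by 4.59 ± 0.22 (6 h), 5.15 ± 0.22 (12 h) and 5.02 ± 0.22 (24 h) in WT, or 24.2-, 35.6- and 32.4-fold, and by 5.34 ± 0.22 (6 h), 5.50 ± 0.22 (12 h) and 5.46 ± 0.22 (24 h) in KO, or 40.4-, 45.2- and 44.1-fold (largest of the 6 limma adjusted p = 1.95e-15).

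RNF144B, an RBR ligase known as a p53-inducible protein, was near or under the filter floor in vehicle cells, so no linear fold is given. The 9 WT vehicle values were 2.03, 2.52 and 1.61 (6 h), 3.30, 2.89 and 1.95 (12 h) and 3.95, 3.11 and 2.31 (24 h). After stimulation WT values were 8.22, 7.45 and 7.27 (6 h), 7.35, 7.64 and 6.71 (12 h) and 6.84, 7.51 and 4.29 (24 h). All stimulated WT libraries were above all vehicle WT libraries, and the lowest of them was the 24 h library that stood apart.
Among KO libraries, vehicle values were 1.14, 0.32 and 0.95 (6 h), 1.84, 2.77 and 1.39 (12 h) and 1.59, 2.58 and 1.39 (24 h). The stimulated KO values were 6.80, 5.34 and 7.27 (6 h), 6.51, 7.46 and 6.54 (12 h) and 7.14, 7.53 and 6.62 (24 h). It rose by 5.59 ± 0.61 (6 h), 4.52 ± 0.61 (12 h) and 3.09 ± 0.61 (24 h) in WT, against 5.67 ± 0.61 (6 h), 4.84 ± 0.61 (12 h) and 5.24 ± 0.61 (24 h) in KO (limma adjusted p at most 1.46e-04 and 3.28e-07). Without the 2 libraries that stood apart the WT change at 24 h was 4.05 ± 0.51 and the KO change at 6 h 6.23 ± 0.51.

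RNF31, also called HOIP, is the catalytic subunit of LUBAC, the complex that makes linear ubiquitin chains on NF-kB signalling platforms. It rose by 0.89 ± 0.20 (6 h), 1.09 ± 0.20 (12 h) and 1.12 ± 0.20 (24 h) in WT, against 0.96 ± 0.20 (6 h), 1.07 ± 0.20 (12 h) and 0.93 ± 0.20 (24 h) in KO, from 1.85- to 2.18-fold, and, like SHARPIN below, is named in addition to the naming rule, after its values were seen. Its WT vehicle libraries lay at 6.76, 6.93 and 7.02 (6 h), 6.71, 7.11 and 6.93 (12 h) and 6.69, 6.93 and 7.01 (24 h), and its WT stimulated libraries at 7.84, 7.67 and 7.87 (6 h), 8.21, 7.66 and 8.15 (12 h) and 8.03, 7.58 and 8.40 (24 h). Every stimulated WT library was above every vehicle WT library. Of 8 LUBAC partners and linear-chain editors, 5 rose in WT at each time, and 7, 6 and 6 rose in KO. The shares of all genes called higher were 15.1%, 16.8% and 20.2% in WT, and 16.2%, 15.5% and 17.3% in KO. RBCK1 (HOIL-1), the partner of RNF31 in LUBAC, rose by 2.07, 2.30 and 2.22 in WT, against 2.31, 2.22 and 1.98 in KO at 6, 12 and 24 h. SHARPIN, the other partner, was at -0.78, -0.69 and -0.53 in WT, against -0.71, -0.81 and -0.75 in KO, and of these only the KO 12 h fall was called (limma adjusted p = 0.0487). TNFAIP3 (A20), which restrains NF-kB, rose by 5.23, 4.83 and 4.78 in WT, and CYLD, which cuts linear and K63 chains, by 2.96, 2.51 and 2.38. TNIP1, a ubiquitin-binding partner of A20, rose by 4.42, 3.28 and 2.26 in WT and 3.89, 3.06 and 2.38 in KO.

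RNF19A, the paralog of RNF19B, rose by 2.26 ± 0.41 in WT at 6 h, and the call held without any 1 library. Its rises of 1.23 at 12 h in WT, 1.47 at 6 h and 1.08 at 12 h in KO were each lost when some single libraries were left out. For WT 12 h these were WT stimulated replicate 1 (1.11) and vehicle replicate 3 (1.13), and for KO 6 h KO stimulated replicates 1 (1.02) and 3 (1.03). Without the 2 libraries that stood apart, of which 1 is KO stimulated 6 h replicate 2, the KO 6 h rise was larger, at 2.36 ± 0.26 (adjusted p = 5.03e-08). At KO 12 h each of the 6 libraries did so, with values from 1.01 to 1.14. RNF217, an RBR ligase linked to the iron exporter ferroportin, is described with the genotypes. RNF14 was not called on stimulation, and RNF144A was not either (1.80 ± 0.76 in WT at 6 h, adjusted p = 0.064, and 0.0238 with the replicate number as a block). RNF216 (TRIAD3), which limits TLR signalling, was called only in KO at 6 h. That fall of 0.50 on the log2 scale was lost without KO vehicle replicate 1 (-0.32) or 3 (-0.50) or KO stimulated replicate 2 (-0.38). RNF216 also has a pseudogene row, and how reads shared between the copies were counted is not given in the sources used here.

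**Figure D2:**
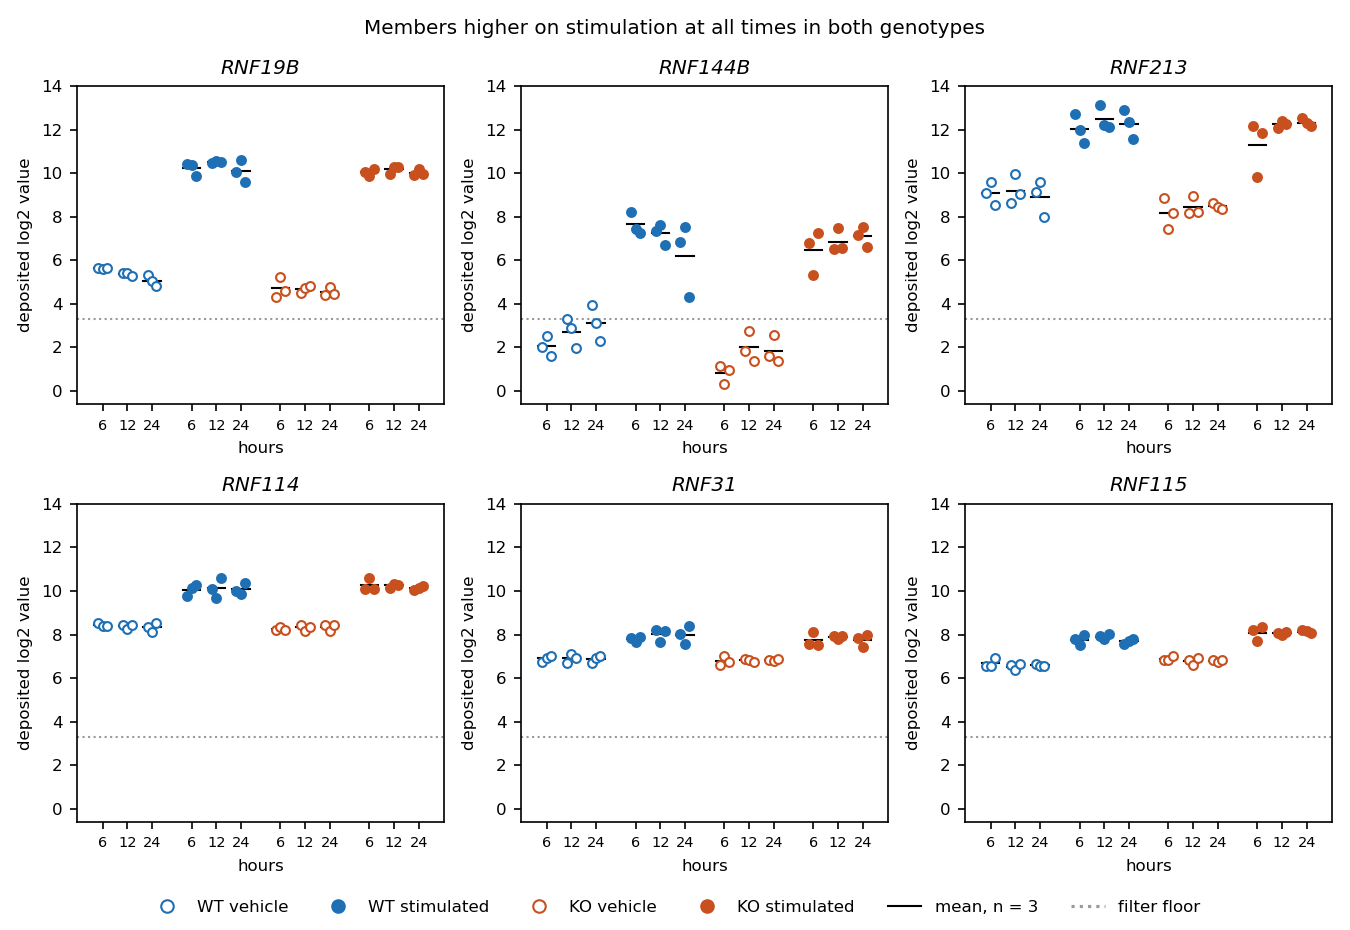
Deposited log2 value of each of 36 libraries (circles, open for vehicle and filled for stimulated, blue for WT and orange for KO) by hours for the 6 members that rose at every time in both genotypes, with a black line at the mean of 3 and a dotted line at the filter floor of 3.32. The filled circles sit above the open ones of the same genotype and time in every panel.

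The RNF114 family holds 4 related RING and zinc finger ligases, RNF114, RNF125, RNF138 and RNF166, and its members moved in opposite directions. At each time in both genotypes 1 of 4 rose and 2 fell, beside 15.1% to 20.2% of all genes higher and 19.5% to 26.1% lower. RNF138 was not called, though its KO 6 h change was at 1.05 ± 0.21 without the 2 libraries that stood apart (adjusted p = 2.16e-04). RNF114, a ligase with a known psoriasis susceptibility locus, rose by 1.61 ± 0.19 (6 h), 1.73 ± 0.19 (12 h) and 1.76 ± 0.19 (24 h) in WT, or 3.05- to 3.40-fold. In KO it rose by 2.01 ± 0.19 (6 h), 1.93 ± 0.19 (12 h) and 1.79 ± 0.19 (24 h), or 3.47- to 4.04-fold. Its WT vehicle libraries lay at 8.54, 8.38 and 8.41 (6 h), 8.44, 8.27 and 8.45 (12 h) and 8.36, 8.13 and 8.51 (24 h), and its WT stimulated libraries at 9.76, 10.12 and 10.26 (6 h), 10.10, 9.69 and 10.58 (12 h) and 10.02, 9.88 and 10.39 (24 h). The ranges of the 2 treatments did not overlap.

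RNF125, which marks the RNA sensors RIG-I and MDA5 and their adaptor MAVS for degradation, had the largest fall of all members. Without stimulation, WT libraries lay at 5.67, 6.15 and 5.30 (6 h), 6.10, 5.77 and 5.80 (12 h) and 6.59, 5.89 and 5.84 (24 h). With LPS and IFN-γ they lay at 1.73, 1.85 and 0.75 (6 h), 1.07, 2.49 and 0.63 (12 h) and 2.30, 2.88 and 0.98 (24 h). Every stimulated WT library was below the floor of 3.32 and every vehicle WT library above it.
Unstimulated KO cells had 5.36, 5.81 and 4.71 (6 h), 5.62, 5.90 and 5.62 (12 h) and 5.99, 6.16 and 5.86 (24 h). Stimulation of KO cells gave 1.12, 0.58 and 0.72 (6 h), 2.52, 1.55 and 1.87 (12 h) and 3.90, 2.84 and 3.13 (24 h). One KO stimulated library, replicate 1 at 24 h, was above the floor. RNF125 fell on the log2 scale by 4.26, 4.49 and 4.06 in WT, against 4.49, 3.73 and 2.72 in KO at 6, 12 and 24 h (SE 0.45 for each; limma adjusted p at most 3.53e-08 in WT and 2.12e-05 in KO). The change of the KO response between 6 and 24 h, 1.77 ± 0.64, was not called (adjusted p = 0.0943).

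RNF166, a ligase known to act on TRAF3 and TRAF6 and in the autophagy of bacteria, was lower in all stimulated groups. Vehicle-treated WT libraries read 7.21, 6.68 and 7.32 (6 h), 6.98, 6.81 and 7.06 (12 h) and 6.98, 6.43 and 7.06 (24 h). The stimulated WT values were 4.68, 4.35 and 4.30 (6 h), 4.64, 4.82 and 4.54 (12 h) and 4.55, 4.51 and 4.67 (24 h). No WT libraries of the 2 treatments overlapped.
The KO vehicle values were 8.01, 8.17 and 7.85 (6 h), 7.98, 7.73 and 7.46 (12 h) and 7.55, 6.79 and 7.38 (24 h). After stimulation KO values were 5.58, 6.34 and 5.27 (6 h), 6.02, 5.44 and 5.78 (12 h) and 5.57, 5.19 and 5.29 (24 h). It fell 6.16-, 4.87- and 4.75-fold in WT and 4.84-, 3.94- and 3.71-fold in KO at 6, 12 and 24 h (log2 changes -2.62, -2.29 and -2.25, and -2.28, -1.98 and -1.89; largest limma adjusted p = 7.05e-07).

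**Figure D3:**
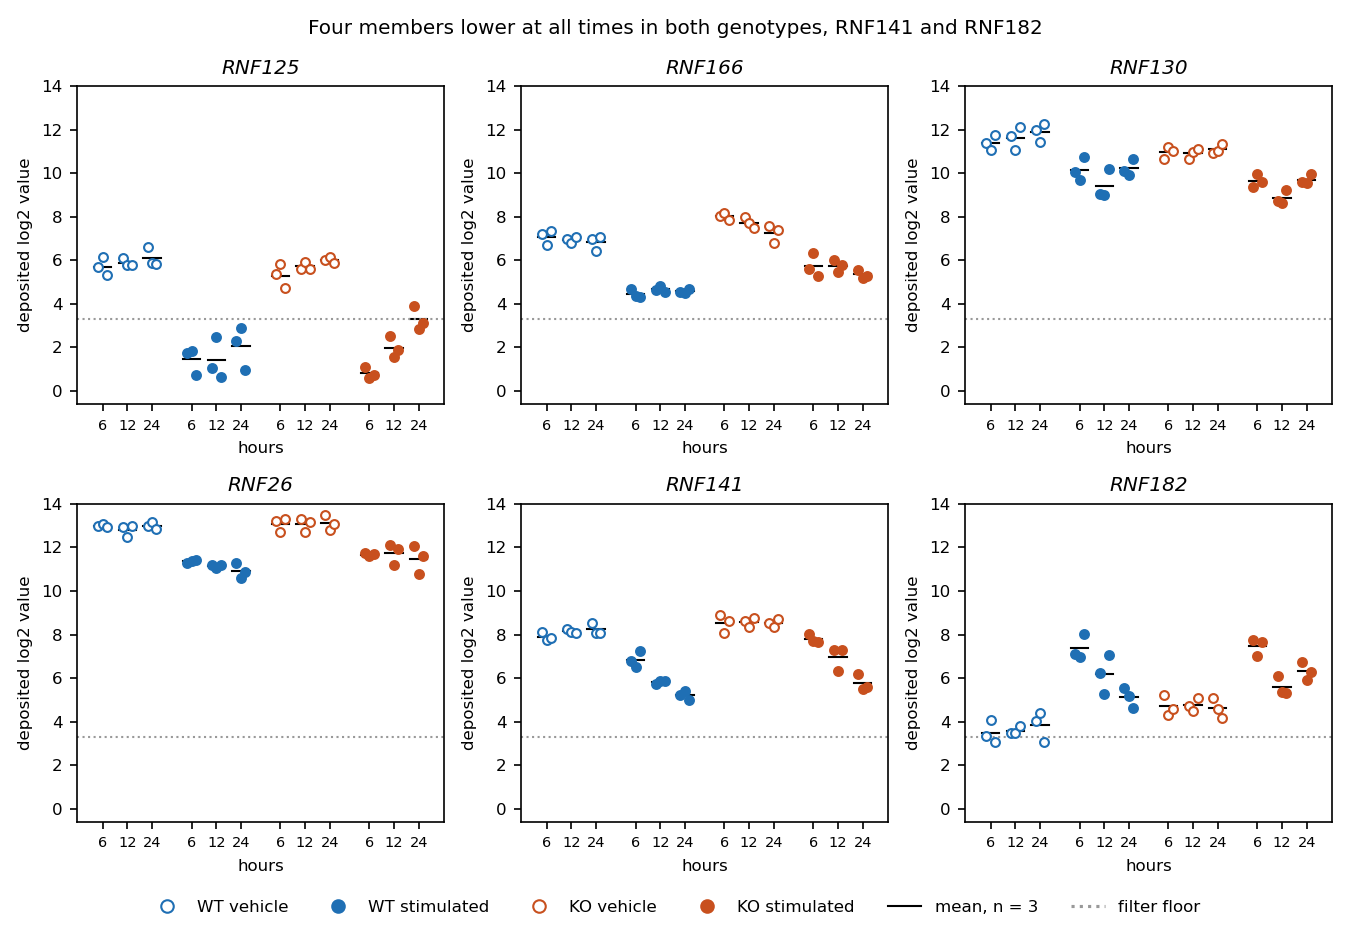
Deposited log2 value of each library by hours for RNF125, RNF166, RNF130 and RNF26, which fell at every time in both genotypes, for RNF141, whose fall grew from 6 to 24 h, and for RNF182, whose rise shrank in WT (circles open for vehicle, filled for stimulated, blue WT, orange KO, black line the mean of 3, dotted line the floor of 3.32). The filled circles of RNF125 sit at or near the floor or below it.

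Of the 6 ligases listed for nucleic acid sensing and STING, 2 rose and 3 fell in WT at 6 h, and 1 rose and 2 fell in KO. The shares of all genes higher and lower then were 15.1% and 20.9% in WT, and 16.2% and 22.5% in KO. RNF213, a giant ligase with a dynein-like ATPase core that coats intracellular bacteria, gave the largest rise of this list. Unstimulated WT cells had 9.07, 9.60 and 8.53 (6 h), 8.61, 9.95 and 9.03 (12 h) and 9.15, 9.59 and 7.98 (24 h). Stimulation of WT cells gave 12.72, 11.99 and 11.39 (6 h), 13.15, 12.19 and 12.14 (12 h) and 12.90, 12.33 and 11.58 (24 h). Stimulated WT libraries were all above vehicle WT libraries.
For RNF213 in KO, vehicle libraries read 8.86, 7.45 and 8.16 (6 h), 8.17, 8.94 and 8.23 (12 h) and 8.64, 8.45 and 8.34 (24 h). With LPS and IFN-γ these were 12.17, 9.81 and 11.83 (6 h), 12.07, 12.38 and 12.27 (12 h) and 12.51, 12.28 and 12.18 (24 h). The lowest KO stimulated value was in the 6 h library that stood apart. RNF213 rose 7.81-, 9.83- and 10.2-fold in WT (log2 2.96 ± 0.50 (6 h), 3.30 ± 0.50 (12 h) and 3.36 ± 0.50 (24 h)) and 8.65-, 13.9- and 14.4-fold in KO (log2 3.11 ± 0.50 (6 h), 3.80 ± 0.50 (12 h) and 3.85 ± 0.50 (24 h)), and the KO 6 h change was 3.84 ± 0.45 without the 2 libraries that stood apart. The antisense row RNF213-AS1 overlaps it and changed by 2.65, 3.14 and 3.57 in WT, and without a stated strand the reads of the pair cannot be told apart.

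RNF26, a membrane ligase of the endoplasmic reticulum that acts on STING, fell by 1.63, 1.68 and 2.08 on the log2 scale in WT, against 1.39, 1.33 and 1.65 in KO, or from 2.52- to 4.24-fold. RNF135 (Riplet), which activates RIG-I with K63 chains, fell in WT at 6 h by 1.20 on the log2 scale and not at the later times (-0.41 and 0.20, neither called). Its KO fall at 6 h, by 0.84, was lost without KO stimulated replicate 1 (-0.65) or 3 (-0.62) or KO vehicle replicate 2 (-0.61). RNF135 overlaps ADAP2, which changed by -1.27, 0.10 and 0.99 in WT at 6, 12 and 24 h. RNF185, a ligase described for cGAS, rose in KO at 24 h by 1.36 ± 0.30. It was also called higher in WT at 24 h, a call lost when some single library was left out. Its WT 24 h libraries lay at 6.02, 5.83 and 5.33 in vehicle cells and 6.84, 7.33 and 5.75 in stimulated cells. Of 10 RNA and DNA sensing partners 7, 7 and 8 rose in WT and 7 at each time in KO. Called higher were 15.1% to 20.2% of all genes in WT and 15.5% to 17.3% in KO. RIGI rose by 4.80, 4.38 and 4.90 and IFIH1, which codes for MDA5, by 4.37, 4.10 and 4.64 in WT at 6, 12 and 24 h. DHX58 (LGP2), a regulator of these sensors, rose by 3.36, 3.20 and 2.94, and the transcription factor IRF7 by 3.57, 3.53 and 4.03.

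Of 6 regulators of NF-kB and TLR signalling, RNF115 (BCA2) rose at every time, by 1.08 ± 0.16 (6 h), 1.37 ± 0.16 (12 h) and 1.11 ± 0.16 (24 h) in WT and 1.19 ± 0.16 (6 h), 1.27 ± 0.16 (12 h) and 1.34 ± 0.16 (24 h) in KO, or 2.12- to 2.59-fold. It overlaps CD160, whose changes ran from 0.39 to 0.73 in WT and from -1.78 to -0.11 in KO. RNF126, the paralog of RNF115 that works with the chaperone BAG6, fell by 1.08 on the log2 scale in WT at 24 h and its WT change of -0.62 ± 0.25 at 12 h was called only with the replicate number as a block (adjusted p = 0.0517 without it and 0.0294 with it). RNF34, described as a brake on MAVS, was at 0.02, 0.67 and 1.28 in WT and -0.19, 0.53 and 1.11 in KO, called at 12 and 24 h in both. The KO 12 h call was lost without KO vehicle replicate 1 (0.51) or 3 (0.50) or KO stimulated replicate 3 (0.49). RNF34 overlaps KDM2B, which changed by 1.14, 0.66 and 0.64 in WT. RNF41 (NRDP1), which acts on MyD88 and TBK1, was at -0.69, -0.12 and 0.89 in WT and -0.74, -0.35 and 0.99 in KO, called at 24 h only. The WT call was lost without WT stimulated replicate 2 (0.52) or WT vehicle replicate 2 (0.84) or 3 (0.82), and the KO call without KO stimulated replicate 2 (0.73). RNF25 was not called on stimulation. RNF11 was not called with all libraries, and its KO 6 h stimulated libraries lay at 12.02, 8.98 and 11.92 against 10.93, 9.97 and 10.71 in vehicle cells. The low one was the library that stood apart, and without it and the WT one the KO 6 h change was 1.43 ± 0.29 (adjusted p = 2.58e-04).

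The protease-associated domain ligases sit in endosomal and other membranes with a domain facing the lumen. RNF130 (goliath) fell at every time, by 1.25, 2.22 and 1.67 on the log2 scale in WT, against 1.32, 2.05 and 1.40 in KO, or 2.38- to 4.66-fold. RNF149 rose at 24 h by 1.36 ± 0.29 in WT and 1.26 ± 0.29 in KO. RNF13 rose at 24 h by 1.26 ± 0.33 in WT and 1.16 ± 0.33 in KO, the latter lost without KO stimulated replicate 2 (0.91). RNF167, an endosomal and lysosomal ligase, fell by 1.15 on the log2 scale in WT at 24 h. It was also called lower in KO at 12 and 24 h, calls that were each lost when some single library was left out. Members of this list thus moved in both directions, and 2 of 6 rose and 2 fell in WT at 24 h. Over all genes 20.2% were called higher and 26.1% lower then. RNF43, which removes Wnt receptors, was near the floor and rose in KO at 6 h by 2.04 ± 0.57 and at 24 h by 2.25 ± 0.57. Its calls at 12 h, higher in both genotypes, were each lost when some single library was left out.

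Among 10 other ligases of the endoplasmic reticulum, Golgi and lysosome, 4 rose and none fell in WT at 6 h. Over all genes 15.1% were called higher and 20.9% lower then. RNF182, a membrane-spanning ligase, had the largest change of this list. WT vehicle libraries lay at 3.35, 4.08 and 3.06 (6 h), 3.50, 3.47 and 3.81 (12 h) and 4.04, 4.41 and 3.07 (24 h). Stimulated WT libraries lay at 7.09, 6.99 and 8.04 (6 h), 6.25, 5.28 and 7.08 (12 h) and 5.54, 5.19 and 4.64 (24 h). WT stimulated libraries were high at 6 h and closer to vehicle at 24 h.
Vehicle-treated KO libraries lay at 5.23, 4.31 and 4.58 (6 h), 4.72, 4.51 and 5.08 (12 h) and 5.11, 4.60 and 4.18 (24 h). Stimulated KO libraries lay at 7.76, 7.01 and 7.68 (6 h), 6.12, 5.36 and 5.34 (12 h) and 6.74, 5.93 and 6.29 (24 h). It rose by 3.88 ± 0.41 (6 h), 2.61 ± 0.41 (12 h) and 1.28 ± 0.41 (24 h) in WT. In KO it rose by 2.77 ± 0.41 at 6 h and 1.69 ± 0.41 at 24 h, and its change of 0.84 ± 0.41 at 12 h was not called (limma adjusted p = 0.119). The WT 24 h call was lost without WT stimulated replicate 1 (1.07) or WT vehicle replicate 3 (0.90). RNF24, a Golgi ligase, rose by 1.21 ± 0.30 at 12 h and 1.52 ± 0.30 at 24 h in WT, and its overlapping neighbour PANK2 changed by 0.99 and 1.01 there. RNF24 was also called higher at 6 h in both genotypes, calls that were each lost when some single library was left out.

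RNF152, a lysosomal ligase of the amino acid sensor RagA, rose in WT at 6 h by 2.80 ± 0.70 from a vehicle level under the floor and was called at no other time. Its WT vehicle libraries lay at 4.14, 2.47 and 1.69 (6 h), 2.34, 3.71 and 1.78 (12 h) and 1.36, 3.42 and 1.99 (24 h), and its WT stimulated libraries at 4.93, 6.40 and 5.36 (6 h), 3.61, 2.04 and 3.04 (12 h) and 2.96, 2.33 and 2.48 (24 h). WT libraries of the 2 treatments were apart at 6 h and overlapped at 12 and 24 h. RNF150, another protease-associated domain member, was near or under the floor and fell in KO at 24 h, a call lost without KO stimulated replicate 2 (-1.64, against -2.03 with all libraries).

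Of 11 chromatin and DNA repair ligases, 5 fell in WT at 6 h and none rose, beside 20.9% of all genes lower and 15.1% higher. The median change of the list was -0.23 beside -0.17 over all genes. RNF20 and RNF40 form the complex that adds ubiquitin to histone H2B. RNF40 fell by 1.12 on the log2 scale in WT and 0.87 in KO at 6 h, and RNF20 by 0.86 and 0.80. The KO call of RNF20 was lost without KO stimulated replicate 2 (-0.45). RNF168, which spreads ubiquitin on histone H2A at DNA breaks, fell by 1.70 and 1.61 in WT at 6 and 12 h, or 3.24- and 3.06-fold, and by 1.42 in KO at 12 h. RNF168 fell by 0.64 in WT at 24 h, and by 0.78 in KO at 6 h and 0.68 at 24 h, with calls that did not hold. Those were lost without KO vehicle replicate 1 (-0.50) or KO stimulated replicate 3 (-0.73) at 6 h, and at 24 h without each of 5 WT libraries (-0.65 to -0.50) and 4 KO libraries (-0.69 to -0.55). RNF113A, a splicing factor with a RING domain, fell by 1.24 and 1.29 at 6 h in WT and KO. RNF2 (RING1B), the catalytic subunit of Polycomb repressive complex 1, was called only in KO at 6 h (0.78 ± 0.26), and not without KO stimulated replicate 1 (0.71) or 3 (0.53) or KO vehicle replicate 2 (0.70).

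Of 14 signalling, cullin and cytosolic quality control ligases, 6 fell in WT and 6 in KO at 6 h, and none rose then. The shares of all genes lower and higher were 20.9% and 15.1% in WT, and 22.5% and 16.2% in KO. RNF141 fell by 1.04, 2.33 and 3.02 on the log2 scale in WT at 6, 12 and 24 h, or 2.06-, 5.03- and 8.13-fold, and by 0.74, 1.62 and 2.77 in KO. The KO 6 h call was lost without KO vehicle replicate 1 (-0.56) or 3 (-0.68) or KO stimulated replicate 3 (-0.67). Its WT stimulated libraries lay at 6.80, 6.51 and 7.25 (6 h), 5.71, 5.85 and 5.88 (12 h) and 5.22, 5.42 and 5.00 (24 h), below all WT vehicle libraries, which lay at 8.10, 7.75 and 7.84 (6 h), 8.27, 8.11 and 8.06 (12 h) and 8.53, 8.09 and 8.09 (24 h). RNF187 (RACO-1), a co-activator of c-Jun, fell 3.10-, 2.34- and 1.86-fold in WT and 2.50-, 1.78- and 1.84-fold in KO. The KO 12 h call was lost without KO vehicle replicate 1 (-0.72) or 3 (-0.70) or KO stimulated replicate 2 (-0.75). RNF44 fell 4.73-fold in WT and 5.06-fold in KO at 6 h, and RNF7, a RING subunit of cullin ligases, 1.87-fold in KO at 6 h. RNF7 was also called lower in WT at 6 h, a call lost when some single library was left out. Its WT libraries there lay at 6.98, 7.04 and 7.28 in vehicle cells and 5.74, 6.26 and 6.57 in stimulated cells. RNF44 overlaps CDHR2, which changed by -2.32 and -1.76 at 6 h in WT and KO. RNF157 fell in WT at 12 and 24 h by 2.30 and 2.19, from a vehicle level near the floor.

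Of the 8 members in no role list, 2 fell and none rose in WT at 6 and at 24 h. Over all genes 20.9% and 26.1% were called lower at these times, and 15.1% and 20.2% higher. RNF227 fell by 2.10 on the log2 scale in WT at 6 h and by 1.91 and 2.03 in KO at 6 and 12 h, and these calls held without any 1 library. Its WT falls of 1.26 and 1.34 at 12 and 24 h did not, being lost without WT vehicle replicate 1 (-1.08) or WT stimulated replicate 2 (-0.89) at 12 h and without WT stimulated replicate 1 (-0.90) or WT vehicle replicate 2 (-1.22) at 24 h. RNF208 fell by 1.32 in WT and 1.42 in KO at 6 h, calls that were each lost without 4 of 6 libraries (-1.25 to -1.19 in WT, -1.47 to -1.07 in KO). RNF224 was near the floor and fell at 24 h by 1.62 in WT and 2.06 in KO, lost without 5 of 6 WT libraries (-1.81 to -1.37) and without KO vehicle replicate 1 (-1.58) or KO stimulated replicate 3 (-1.54).

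A RING ligase acts with an E2 enzyme, and 9 of 21 partner E2 enzymes rose in WT at 6 h and 1 fell. Over all genes 15.1% were called higher and 20.9% lower then. UBE2L6, the E2 of the ubiquitin-like modifier ISG15, rose by 2.56, 2.47 and 2.48 in WT and 3.40, 3.21 and 3.42 in KO. UBE2E2 rose by 1.50, 1.52 and 1.64 in WT and 1.91, 2.20 and 2.62 in KO, and UBE2A, the E2 of histone H2B ubiquitination, by 1.20, 1.62 and 1.14 and 2.15, 1.67 and 1.09. UBE2D1, a broad E2 for RING ligases, rose by 1.31, 1.31 and 1.05 in WT and 1.48, 1.27 and 1.46 in KO. Of 14 partner proteins of nuclear RNF ligases, 2 rose and 3 fell in WT at 6 h, beside 15.1% and 20.9% of all genes. PCGF5, a partner of RNF2, rose by 2.15, 2.29 and 2.35 in WT and 2.60, 2.69 and 3.02 in KO. PCGF2, also a partner of RNF2, rose in WT at 12 and 24 h by 1.03 and 1.31, and its KO changes of 0.09 and 0.47 were not called. HERC2, which works with RNF8 at DNA breaks, was at -0.87, -0.63 and -0.75 in WT and -1.35, -0.85 and -0.98 in KO, called at each time except WT 12 h. BMI1 (PCGF4), another RNF2 partner, fell in KO (log2 changes -1.86, -2.20 and -1.61). In WT its changes of -1.07, -1.20 and -0.79 were not called, and those at 6 and 12 h were with the replicate number as a block (adjusted p = 0.0129 and 0.00533). The difference between genotypes in its response, -0.87 ± 0.51, was not called (adjusted p = 0.367, and 0.0424 with the block). Among the other partners, that difference was called, as the mean of 3 times with KO minus WT, for UBE2L6 (0.84 ± 0.22, adjusted p = 0.0209), UBE2E2 (0.69 ± 0.18, adjusted p = 0.017) and the E2 enzyme UBE2H (-0.84 ± 0.19, adjusted p = 0.00589), and these 3 calls held without any 1 library. It was also called for CYLD (0.91 ± 0.27, adjusted p = 0.0401) and DHX58 (0.61 ± 0.19, adjusted p = 0.0456), but was lost for CYLD without each of 23 of the 36 libraries (0.79 to 1.14 over all 36) and for DHX58 without each of 26 (0.54 to 0.68). It was 1.02 for CYLD (adjusted p = 5.21e-05) and 0.54 for DHX58 (adjusted p = 0.0766) without the 2 libraries that stood apart. In that setting it was also called for TNFAIP3 (0.67 with all libraries and 0.89 without, limma adjusted p = 0.0229). The same held for the E2 enzyme UBE2V2 (0.32 and 0.47, limma adjusted p = 0.0204).

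The second question was whether the timing of the response differed, that is, whether the change at 24 h differed from that at 6 h. In WT 6 members had a higher response at 24 h and 2 a lower one, beside 4.38% and 5.26% of all genes, and in KO 5 and 2, beside 3.35% and 3.41%. RNF113A (1.22 ± 0.26 in WT, 1.42 ± 0.26 in KO) and RNF34 (1.26 ± 0.25 and 1.30 ± 0.25) were higher at 24 h in both genotypes, and RNF141 was lower in both (-1.98 ± 0.35 and -2.02 ± 0.35). These 6 calls, and those of RNF135 (1.39 ± 0.36) and RNF182 (-2.59 ± 0.59) in WT, held without any 1 library. RNF113A had fallen at 6 h and was at -0.02 in WT and 0.13 in KO at 24 h. RNF34 was at 0.02 and -0.19 at 6 h and had risen by 24 h. RNF41 (1.57 in WT, 1.73 in KO) was also called in both, but not without replicate 2 of the stimulated 24 h group (1.20 and 1.47). The KO count of 7 was 12 without the 2 libraries that stood apart, and 3 without KO stimulated 24 h replicate 2. The 5 gained without those 2 libraries included RNF19A (-0.92 with all libraries and -1.81 without), RNF11 (-0.34 and -1.33), RNF138 (-0.23 and -1.05) and RNF135 (0.98 and 1.38). In WT 4 were gained, among them RNF13 (1.01 and 1.46) and RNF19A (-1.49 and -1.34). RNF144B was at -2.50 ± 0.86 in WT (adjusted p = 0.0637, not called, and 0.0256 with the replicate number as a block). Without the 2 libraries that stood apart it was at -1.54 ± 0.68 (adjusted p = 0.139).

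The third question was whether loss of IRG1 changed these responses. Across the 73 members the changes in WT and KO had a Pearson r of 0.926, 0.913 and 0.885 at 6, 12 and 24 h, and a Spearman rho of 0.907, 0.873 and 0.855. Over all 21232 genes tested r was 0.848, 0.847 and 0.823. These are descriptions across genes, which are not independent. At 6, 12 and 24 h 26, 23 and 23 members were called in both genotypes in the same direction, and 0, 1 and 1 in opposite directions. The 1 member called in opposite directions was RNF122 at both times. The share of all genes called in both genotypes at a single time was not taken. The counts of shared calls thus describe the members only and set them apart from no other genes.

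**Figure D4:**
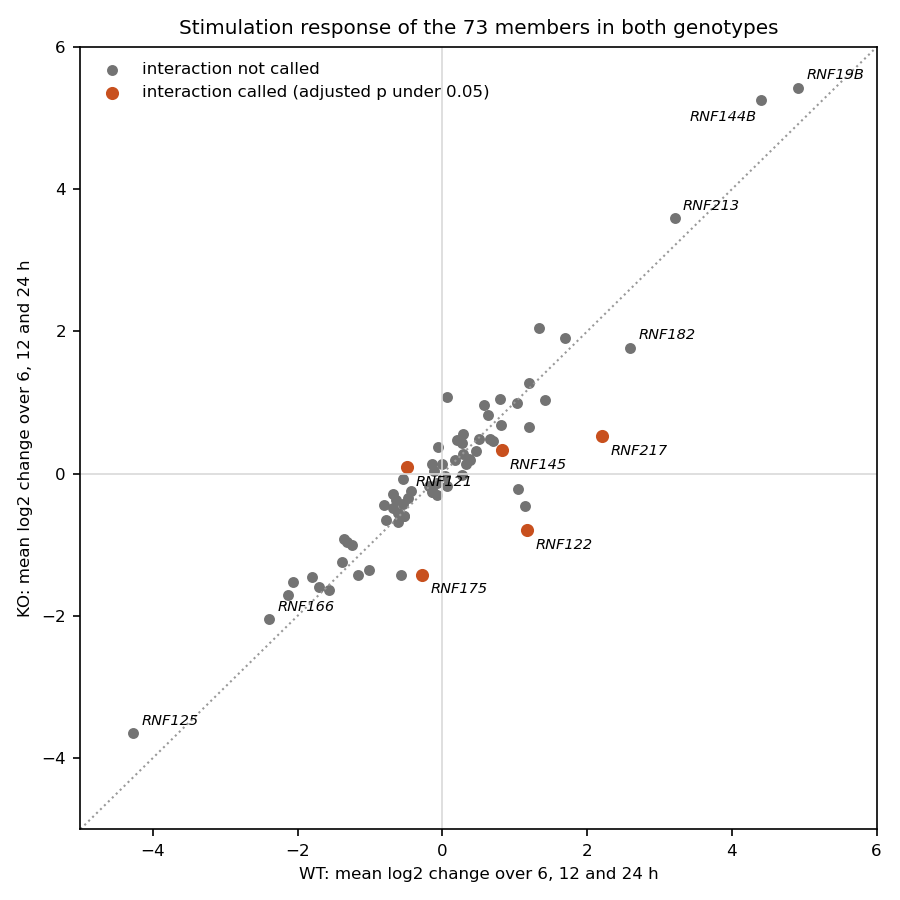
Mean log2 change on stimulation over 6, 12 and 24 h in KO (vertical) against WT (horizontal) for the 73 members, with a dotted line of equal change and orange points for the 5 members whose interaction was called. RNF122, RNF217, RNF175 and RNF145 lie below the line and RNF121 above it.

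The interaction of genotype and stimulation, averaged over the 3 times, was called for 5 members, 1 higher and 4 lower in KO, beside 3.32% and 2.92% of all genes. Those of RNF122, RNF217 and RNF175 held without any 1 library. RNF121 (0.58 ± 0.18, adjusted p = 0.0465) and RNF145 (-0.49 ± 0.15, adjusted p = 0.0437) were close to the threshold. Leaving out each of the 36 libraries in turn gave values from 0.47 to 0.65 and adjusted p up to 0.0797 for RNF121, whose call was lost without 27 of them, and values from -0.55 to -0.44 and adjusted p up to 0.0805 for RNF145, whose call was lost without 23 of them. At single times with all libraries, none was called at 6 or 12 h by limma (6 and 5 members at an unadjusted p under 0.05), where 0.452% and 0.16% of all genes were called in either direction, and RNF175 was called at 24 h (0.433% of all genes were, in either direction). Without the 2 libraries that stood apart 1 member was called at 12 h, so the absence of calls there depended on the setting.

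RNF122, a membrane ligase reported to degrade RIG-I, showed the largest interaction among the members, -1.97 ± 0.27 (adjusted p = 3.79e-05). The 9 WT vehicle values were 4.13, 3.73 and 4.34 (6 h), 4.34, 3.99 and 4.41 (12 h) and 3.93, 4.28 and 4.14 (24 h). After stimulation WT values were 4.97, 5.37 and 6.13 (6 h), 4.88, 5.16 and 5.82 (12 h) and 5.04, 5.33 and 5.10 (24 h). All stimulated WT libraries were above all vehicle WT libraries.
Among KO libraries, vehicle values were 6.44, 6.21 and 6.05 (6 h), 6.69, 5.17 and 6.45 (12 h) and 5.77, 5.20 and 6.21 (24 h). The stimulated KO values were 5.84, 6.13 and 5.60 (6 h), 4.72, 5.18 and 5.19 (12 h) and 4.89, 4.72 and 4.71 (24 h). In KO the vehicle libraries were thus the higher ones at 24 h. RNF122 rose by 1.42 ± 0.33 (6 h), 1.04 ± 0.33 (12 h) and 1.04 ± 0.33 (24 h) in WT, and in KO it was at -0.38 ± 0.33 at 6 h, not called, and fell by 1.07 at 12 h and 0.95 at 24 h. In vehicle cells KO exceeded WT by 2.17 ± 0.33, 1.86 ± 0.33 and 1.61 ± 0.33 at 6, 12 and 24 h, or 4.49-, 3.62- and 3.06-fold, with no overlap (largest adjusted p = 0.00408). In stimulated cells the difference was 0.37 ± 0.33, -0.26 ± 0.33 and -0.38 ± 0.33, called at no time. The WT 12 h call was lost without WT vehicle replicate 2 (0.91) or WT stimulated replicate 3 (0.77). The KO 12 h call was lost without KO vehicle replicate 1 (-0.78) or 3 (-0.90) or KO stimulated replicate 1 (-0.92). The KO 24 h call was lost without KO vehicle replicate 1 (-0.93) or 3 (-0.71) or KO stimulated replicate 2 (-0.93) or 3 (-0.92).

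RNF217 had an interaction of -1.68 ± 0.33 (adjusted p = 0.00166). Without stimulation, WT libraries lay at 4.82, 4.67 and 4.03 (6 h), 5.10, 4.96 and 4.34 (12 h) and 5.05, 4.72 and 3.99 (24 h). With LPS and IFN-γ they lay at 7.07, 6.51 and 6.79 (6 h), 7.58, 6.19 and 7.11 (12 h) and 7.22, 6.09 and 7.02 (24 h). WT libraries of the 2 treatments did not overlap.
Unstimulated KO cells had 6.47, 5.33 and 5.87 (6 h), 6.29, 6.01 and 5.64 (12 h) and 6.12, 5.73 and 5.75 (24 h). Stimulation of KO cells gave 7.06, 5.51 and 6.76 (6 h), 6.51, 6.45 and 6.60 (12 h) and 6.70, 5.72 and 6.66 (24 h). It rose by 2.28 ± 0.40 (6 h), 2.16 ± 0.40 (12 h) and 2.19 ± 0.40 (24 h) in WT, or 4.86-, 4.48- and 4.57-fold. In KO its changes of 0.55, 0.54 and 0.49 were not called. Without the 2 libraries that stood apart, of which 1 is KO stimulated 6 h replicate 2, the KO 6 h change was 1.02 ± 0.41 (adjusted p = 0.0462) and the interaction -1.48 ± 0.31. In vehicle cells KO exceeded WT by 1.38 ± 0.40 at 6 h, a call lost without KO replicate 1 (1.09) or 3 (1.40) or WT replicate 2 (1.46) or 3 (1.15). At 12 and 24 h the vehicle differences were 1.18 ± 0.40 and 1.28 ± 0.40 (adjusted p = 0.089 and 0.0706). Both were called with the replicate number as a block (adjusted p = 0.0156 and 0.0103) and without the 2 libraries that stood apart (adjusted p = 0.0461 and 0.0346). RNF217-AS1 overlaps it and changed by 0.54, 0.65 and 0.39 in WT and -0.09, -0.31 and -0.49 in KO.

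RNF175, a member in no role list, had an interaction of -1.14 ± 0.26 (adjusted p = 0.00663). Vehicle-treated WT libraries read 4.47, 4.17 and 4.57 (6 h), 4.54, 4.47 and 4.98 (12 h) and 4.64, 4.96 and 5.67 (24 h). The stimulated WT values were 3.68, 4.02 and 3.66 (6 h), 4.56, 4.41 and 4.66 (12 h) and 5.01, 4.61 and 5.33 (24 h). WT libraries of the 2 treatments overlapped at 12 and 24 h.
The KO vehicle values were 3.53, 4.17 and 4.15 (6 h), 3.59, 4.49 and 4.39 (12 h) and 4.18, 4.63 and 4.60 (24 h). After stimulation KO values were 2.70, 3.29 and 3.73 (6 h), 2.99, 2.72 and 2.70 (12 h) and 1.94, 2.23 and 2.65 (24 h). In WT its changes of -0.62, -0.12 and -0.11 were not called, while in KO it fell by 1.35 at 12 h and 2.20 at 24 h. Stimulated KO cells were below stimulated WT cells by 1.74 at 12 h and 2.71 at 24 h on the log2 scale (adjusted p = 0.0013 and 6.42e-06). RNF175 overlaps TLR2, whose changes were 1.47, 1.88 and 1.89 in WT and 1.29, 1.18 and 1.09 in KO, and the reads of overlapping genes cannot be told apart without a stated strand.

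**Figure D5:**
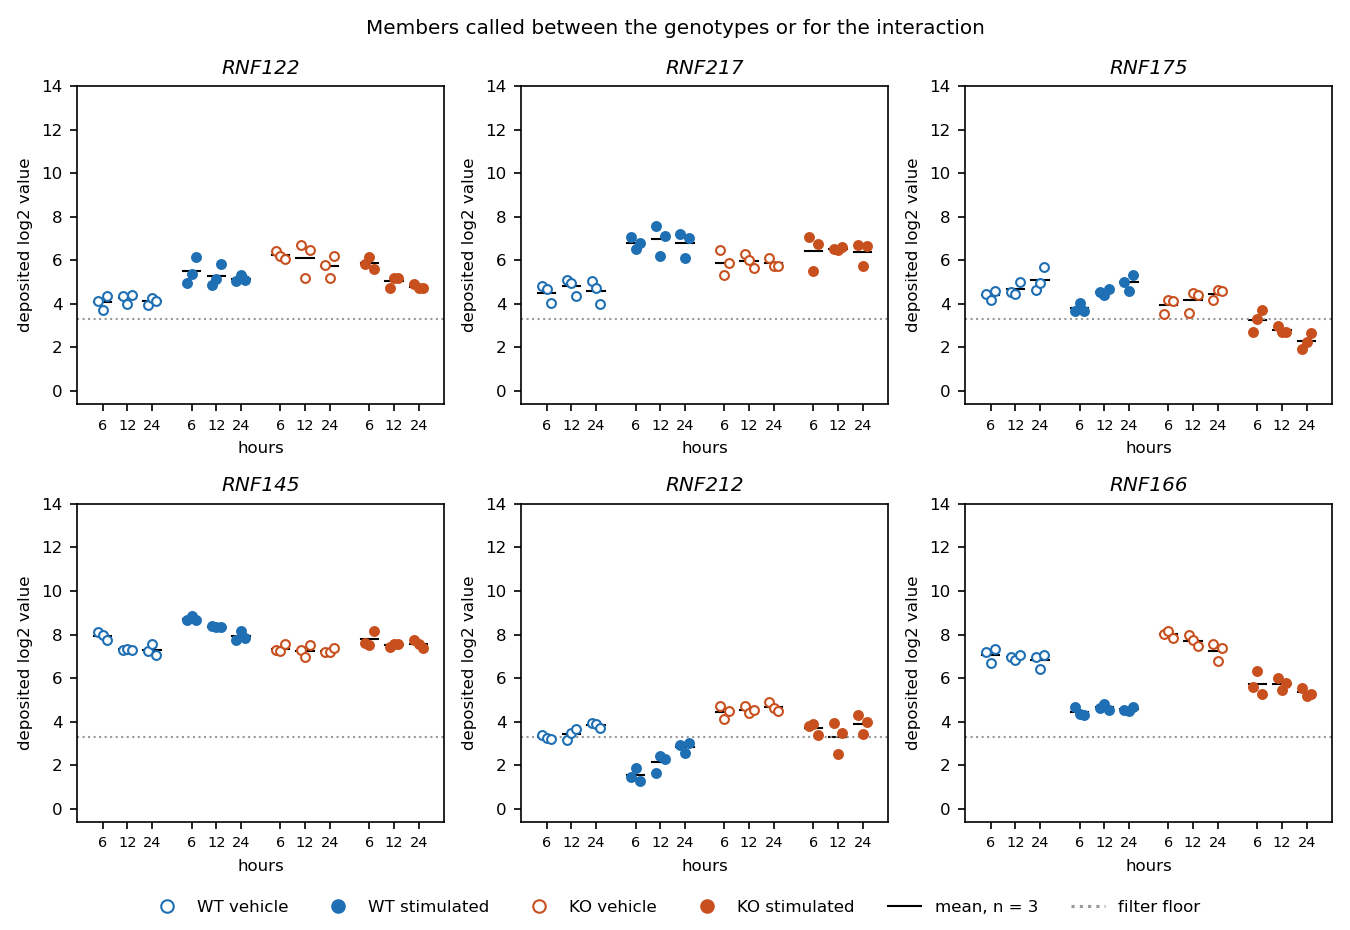
Deposited log2 value of each library by hours for RNF122, RNF217, RNF175, RNF145, RNF212 and RNF166 (circles open for vehicle, filled for stimulated, blue WT, orange KO, black line the mean of 3, dotted line the floor of 3.32). Open orange circles sit above open blue ones for RNF122, and the filled orange circles of RNF175 sit at or near the floor or below it.

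In direct comparison of the genotypes, 5 members were higher and 2 lower in KO vehicle cells at 6 h, beside 4.28% and 3.91% of all genes. At 12 h 3 were called, all higher (2.90% of all genes were higher and 2.34% lower), and at 24 h 2, both higher (2.23% and 1.75%). In stimulated cells 4 were higher and 2 lower at 6 h (4.86% and 3.86%), 4 and 2 at 12 h (1.78% and 1.68%), and 2 and 1 at 24 h (3.41% and 2.46%). These totals moved with single libraries and settings, for which the shares of all genes called are not given here. With the replicate number as a block they were 7 in vehicle cells at 12 h, 4 at 24 h, and 8 in stimulated cells at 24 h. Fitting only the groups compared left 1, 0 and 0 in vehicle cells and 0, 0 and 0 in stimulated cells at 6, 12 and 24 h with limma (at an unadjusted p under 0.05 there were 15 and 11 in vehicle cells at 12 and 24 h, and 6, 10 and 6 in stimulated cells). A stricter filter, which left 53 members to test, gave 4, 0 and 0 in vehicle cells, and 3 and 1 in stimulated cells at 12 and 24 h (7 and 7 at an unadjusted p under 0.05 in vehicle cells at 12 and 24 h). The vehicle 6 h total of 7 was 3 without KO replicate 1 and 4 without WT replicate 2 or 3, and the 12 h total of 3 was 1 without WT replicate 1 or 3 or KO replicate 1 or 3, and 7 without the 2 libraries that stood apart. The vehicle 24 h total of 2 was 1 without any 1 of the 6 libraries. The stimulated 6 h total of 6 was 3 without WT replicate 1. When the 2 libraries that stood apart were left out, RNF11 was called in stimulated cells at 6 h (0.08 with all libraries and 1.08 without), the RNF187 call there was lost (0.82 and 0.50), and RNF13 was at -0.90 there in place of -1.37 and was called at 24 h (-0.74 and -1.19). The stimulated 12 h total of 6 was 3 without WT replicate 1 or 3, 1 without KO replicate 1 and 2 without KO replicate 3. Of the 27 calls 9 held without any 1 library, namely those of RNF122 in vehicle cells and of RNF175, and in stimulated cells 1 each of RNF212, RNF166, RNF145 and RNF220.

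RNF212, a meiotic crossover ligase, was low in all groups. In WT stimulated cells it was at 1.47, 1.86 and 1.30 (6 h), 1.65, 2.43 and 2.30 (12 h) and 2.91, 2.58 and 3.03 (24 h), and in KO stimulated cells at 3.80, 3.90 and 3.38 (6 h), 3.93, 2.52 and 3.47 (12 h) and 4.30, 3.42 and 4.00 (24 h). Unstimulated WT cells had 3.39, 3.25 and 3.19 (6 h), 3.18, 3.50 and 3.68 (12 h) and 3.92, 3.91 and 3.73 (24 h), and unstimulated KO cells had 4.71, 4.11 and 4.50 (6 h), 4.72, 4.38 and 4.56 (12 h) and 4.89, 4.65 and 4.49 (24 h). All KO libraries at 6 h were above all WT libraries of the same treatment.
Stimulated KO cells exceeded WT by 2.15 ± 0.32 at 6 h (adjusted p = 7.33e-05). RNF166, described above, was higher in KO stimulated cells at 6 h by 1.29 ± 0.25, or 2.44-fold, and by 0.98 ± 0.25 without the 2 libraries that stood apart. It was also called higher in KO vehicle cells at 6 h, a call lost when some single library was left out. Its interaction was not called. RNF220 was higher in KO stimulated cells at 24 h by 0.75 ± 0.17, or 1.69-fold. RNF141 was called higher in KO stimulated cells at 6 and 12 h, calls that were each lost when some single library was left out. Its KO stimulated libraries lay at 8.02, 7.69 and 7.65 (6 h) and 7.27, 6.34 and 7.29 (12 h). In WT they lay at 6.80, 6.51 and 7.25 (6 h) and 5.71, 5.85 and 5.88 (12 h). RNF145, a sterol-regulated ligase of the endoplasmic reticulum, rose in WT by 0.78 ± 0.18 (6 h), 1.03 ± 0.18 (12 h) and 0.65 ± 0.18 (24 h). Its WT stimulated libraries lay at 8.69, 8.85 and 8.66 (6 h), 8.38, 8.33 and 8.33 (12 h) and 7.76, 8.15 and 7.85 (24 h), and its KO stimulated libraries at 7.63, 7.53 and 8.17 (6 h), 7.41, 7.58 and 7.57 (12 h) and 7.73, 7.55 and 7.40 (24 h). At 6 h the KO stimulated libraries were all lower than the WT ones, by 0.96 on the log2 scale, or 1.95-fold (SE 0.18, adjusted p = 8.57e-04). RNF145 was also called lower in KO vehicle cells at 6 h, a call lost when some single library was left out. Macrophage markers also differed between the genotypes: 4, 3 and 3 of 10 were lower in KO vehicle cells at 6, 12 and 24 h and 4, 3 and 2 in stimulated cells, and none was higher. Over all genes 3.91%, 2.34% and 1.75% were called lower in KO vehicle cells, and 3.86%, 1.68% and 2.46% in stimulated cells. Called higher were 4.28%, 2.9% and 2.23% in vehicle cells, and 4.86%, 1.78% and 3.41% in stimulated cells. The summed level of these markers ran from 14.28 to 15.45 in WT vehicle and 13.39 to 14.09 in KO vehicle libraries, and from 13.84 to 14.99 and 13.24 to 14.31 in stimulated ones. LYZ, the lysozyme gene, was lower in KO vehicle cells by 3.31, 3.69 and 2.03 on the log2 scale. Of the 9 markers of other cell types that were tested, COL1A1, a fibroblast collagen, was lower in KO stimulated cells by 3.23, 2.93 and 2.46 on the log2 scale at 6, 12 and 24 h. COL1A1 rose in WT by 2.80, 2.01 and 1.82, its KO changes of 0.80, 0.20 and 0.25 were not called, and its interaction was -1.79 (adjusted p = 0.00201). CDH1, an epithelial cadherin, rose in KO at 12 and 24 h by 3.95 and 3.22, to means of 4.34 and 3.38, and its response at 24 h exceeded that at 6 h by 4.39 in KO (adjusted p = 0.0156). KRT18, an epithelial keratin, was higher in KO vehicle cells at 6 and 12 h by 2.15 and 1.86, and NCAM1, a neural and natural killer cell marker, was lower there at 6 h by 1.88. PECAM1, in the same list of other cell types, lay at 9.08, 7.85 and 9.09 in WT and 7.43, 7.46 and 7.91 in KO vehicle cells at 6 h. In stimulated cells at 6 h it lay at 7.45, 6.74 and 7.87 in WT and 6.21, 5.96 and 6.24 in KO. SPI1, a macrophage marker, had an interaction of 0.83 (adjusted p = 0.00618). The part of these marker differences in the genotype results was not tested.

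Values of some members carry further limits from their place in the genome. Of the 73, 27 overlap another gene that has a row in the table, and 6 (RNF5, RNF11, RNF13, RNF126, RNF138 and RNF216) have a pseudogene copy with a row. How such reads were counted is not given in the sources used here. RNF183 was below the floor of 3.32 in the mean of every group, and RNF112 in nearly every group.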

How the data were processed

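RNA sequencing was described for 36 libraries of THP-1 cells in 12 groups of 3, made from total RNA after removal of ribosomal RNA. Reads were trimmed with cutadapt 1.9.1 and aligned with GSNAP to GRCh37.p5, per the submitters' processing notes. The authors deposited 1 table of log2 expression values per gene. The counter, annotation, strand setting, normalization and offset are not given in the sources used here, and neither is the depth of each library. All 36 columns have a number as header, and each was matched to the 1 sample whose description in the labels is that number.

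Genes at or above 3.32 (log2 of 10) in at least 3 libraries were kept, which left 21232 of 21599. limma 3.58.1 in R 4.3.3 was fitted to all 36 libraries with 12 group means and a mean-variance trend (24 residual degrees of freedom, median prior 4.45). Contrasts compared treatments, genotypes, times and their interactions, with p-values adjusted by Benjamini-Hochberg over all genes kept, and 0.05 as the threshold. The fit was tested on simulated data. Members were found by Entrez identifier and current symbol; 84 RefSeq protein-coding genes match the rule and 11 of them have no row. The members, role lists and partner lists were chosen with earlier results of these data known.

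Genes named were up to 4 per role or partner list by mean change, the 12 members with the largest change, those called at 2 or more times between genotypes, and the largest interactions and time differences. Alternatives were no filter, a stricter filter, a pseudocount of 5, quantile normalization, no trend, only the groups compared, the replicate number as a block, and leaving out each library. Leaving out the 2 libraries that stood apart was chosen after seeing the data. Same-numbered replicates deviated together, every pair correlating above 0.1, in 9 of 12 contrasts of groups and not in KO at 24 h or between genotypes at 6 h. The pairing comes from these correlations and the replicate numbers in the labels. Promoters came from RefSeq (GRCh38.p14), which held 62 of the 73 members. One member is counted but not reported here by name.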

Additional observations from a re-analysis of the deposited data

Results flagged for a closer look

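The response to LPS and IFN-γ was called as different between genotypes, by the interaction averaged over 3 times, for RNF122 (-1.97), RNF217 (-1.68), RNF175 (-1.14), RNF145 (-0.49) and RNF121 (0.58), all on the log2 scale with limma. The calls of RNF145 and RNF121 were each lost when some single library was left out. RNF175 also had an interaction at 24 h alone of -2.09 (adjusted p = 0.032). Leaving out each of the 12 libraries at 24 h gave -2.38 to -1.86 and ended that call in 7 cases, and without the 2 libraries that stood apart it was -1.92 (adjusted p = 0.0647).

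The response at 24 h differed from that at 6 h in both genotypes for RNF113A (1.22 in WT and 1.42 in KO), RNF34 (1.26 and 1.30), RNF41 (1.57 and 1.73), RNF44 (1.59 and 1.93) and RNF141 (-1.98 and -2.02). In WT it also differed for RNF135 (1.39), RNF182 (-2.59) and RNF40 (0.86), and in KO for RNF149 (1.37) and RNF175 (-1.49). The calls of RNF40 in WT, RNF44 in both genotypes, RNF149 in KO and RNF41 in both were lost without at least 1 library, and that of RNF175 in KO without 8 of 12 (-1.76 to -1.25 over the 12). Whether these time differences themselves differ between WT and KO was not tested.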

How the results depend on the processing

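No filter and quantile normalization changed none of 1335 comparisons, each of 1 member or named partner gene in 1 contrast, whether called or not. No call was replaced by a call in the other direction in any alternative run. Some changes that were not called did switch sign, such as that of RNF6 in KO at 6 h without KO stimulated replicate 2. Fitting only the groups compared gave 16 members in KO at 6 h in place of 29. Between genotypes it gave 1, 0 and 0 in vehicle cells and 0, 0 and 0 in stimulated cells at 6, 12 and 24 h with limma, where 15 and 11 (vehicle 12 and 24 h) and 6, 10 and 6 (stimulated) had an unadjusted p under 0.05. It gave 5 for 24 h against 6 h in WT in place of 8. The stricter filter left 53 members to test, without RNF122, RNF125, RNF144B, RNF175, RNF182, RNF212 and others, and gave 4, 0 and 0 in vehicle cells (7 and 7 at an unadjusted p in the latter), 3 and 1 in stimulated cells at 12 and 24 h, and 3 interactions. With the replicate number as a block, 11, 7 and 4 were called in vehicle cells and 8 in stimulated cells at 24 h. Vehicle cells at 6 h did not meet the pairing check. Over the 1335 comparisons, most of them not called, the block ended no call and added 57. Without the 2 libraries that stood apart, an alternative chosen after seeing the data, 7 were called in vehicle cells at 12 h and 12 for 24 h against 6 h in KO.

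Leaving out each library gave 28 to 34, 24 to 29 and 29 to 33 members in WT at 6, 12 and 24 h, and 23 to 33, 17 to 27 and 21 to 28 in KO. Between genotypes the ranges were 3 to 5, 1 to 2 and 1 to 1 in vehicle cells and 3 to 8, 1 to 6 and 2 to 4 in stimulated cells. They were 3 to 6 for the interaction, and 6 to 10 in WT and 3 to 10 in KO for 24 h against 6 h. The cause of these shifts was not tested, beyond fewer samples or genes in the fit. Counts between genotypes thus depend on the setting, and read depth, which is unknown, cannot be weighed.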
